A study of Homo sapiens with 8 samples.

Results

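The proteasome subunit genes and NFE2L1 were followed in HepG2 cells treated with plastic-related compounds. The group was taken as the genes of the count table whose Ensembl identifiers map to the 20S core, the 19S regulator, the activator subunits and their transcriptional regulator NFE2L1. All 43 genes were found among the 60230 genes of the table. They comprised 7 alpha ring subunits, 10 beta ring subunits, 17 subunits of the 19S regulator, 3 chaperones of 19S assembly, 5 activator or inhibitor genes and NFE2L1.

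The 26S proteasome degrades proteins that carry ubiquitin chains. Its 20S core is a barrel of stacked rings, in which the outer alpha rings control entry and the inner beta rings hold the proteolytic sites, and the 19S regulator caps the barrel, binds ubiquitin chains and unfolds the substrate with a ring of ATPases. NFE2L1 (also called NRF1) is a membrane-bound transcription factor of the endoplasmic reticulum that is known to activate the proteasome subunit genes together when proteasome activity is low, whereas its relative NFE2L2 (NRF2) is best known for the response to oxidants and electrophiles.

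HepG2 is a widely used human liver carcinoma line, and all 8 samples came from a derivative that overexpresses the drug-metabolizing enzyme CYP3A4 and is kept under blasticidin. Cells received compound 4, 5, or 6 for 24 h, each at its own IC50 concentration from a viability assay, and control cells received 0.2% DMSO. The molar concentrations were therefore not matched between compounds. There were 2 samples in each of the 4 groups, labelled day 1 and day 2, and nothing in the labels says that they came from separate cultures, so p-values measure the spread between these samples, which may be technical. All compounds are bisphenol antioxidants. Compounds 4 and 6 share a methylene bridge and differ by a tert-butyl against a cyclohexyl group on each ring, while compound 5 has an ethylidene bridge and tert-butyl groups only.

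The samples held between 9472261 and 13308975 estimated counts. Mitochondrial genes took 4.91% and 5.12% of them in DMSO and 5.46% and 5.31% under compound 4. This share was 6.15% and 5.87% under compound 5 and 5.58% and 6.21% under compound 6, and its part in the results was not tested. Values below are counts scaled to a common library size with TMM factors (normalised CPM), given for replicates 1 and 2 of a group in this order, and 3 counts, the smallest amount distinguishable from 0 by counting error alone, corresponded to between 0.234 and 0.313 normalised CPM. The samples of compound 4 differed most from each other, by a chi-square of 17.32 per degree of freedom, against 5.55 to 9.15 in the other groups. The 7 hepatocyte markers ALB, APOA1, APOB, TTR, AFP, SERPINA1 and HNF4A summed to 35500 and 33900 normalised CPM in DMSO and to between 26800 and 33500 in the treated samples. ALB, at 18500 and 16400 in DMSO and between 12600 and 16000 in the treated samples, was the largest part of this sum, and APOA1 and AFP were also lower in every treated sample. Under compound 5, SERPINA1 (3110 and 3220 against 4190 and 3580) and HNF4A (329 and 320 against 362 and 365) were also below both DMSO samples, and under compound 4, TTR (126 and 149 against 99.3 and 74.6) was above both. APOB did not follow ALB, with 5680 and 7470 in DMSO and 6520 and 2890 under compound 4. It had 8630 and 6920 under compound 5, and 8300 and 7590 under compound 6, where both samples were above DMSO. The part of the hepatocyte sum in the results was not tested. Of 6 fibroblast markers 3 were at 0 in all samples (LUM, DCN, COL1A2), and the sum, nearly all PDGFRB, was 1.64 to 2.66 in DMSO, 6.32 to 8.72 under compound 4, 2.67 to 4.58 under compound 5, and 3.86 to 5.43 under compound 6. Of 4 endothelial markers KDR was at 0, and their sum was at most 2.06. Of 5 immune markers PTPRC and CD3E were at 0, and the sum was 2410 to 3030 in DMSO, 2140 to 2500 under compound 4, 1890 to 2060 under compound 5, and 2230 to 2700 under compound 6, nearly all LYZ. The other detected immune markers did not follow this sum. CD68 was at 38.5 and 27.2 in DMSO, 56.3 and 57.6 under compound 4, 39.1 and 35.6 under compound 5, and 50.6 and 47.3 under compound 6, and CD14 had 1 and 2 counts in DMSO and 5 to 16 in the treated samples. Of the CD68 sequence, 77.3% of 31-mers also occur in AC016876.2, so its level as a marker is uncertain. The part of these sums in the results was not tested either. In bulk RNA, fewer cells of a type and less RNA per cell cannot be told apart.

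With compound 5, the regulator NFE2L1, activator subunits and an immunoproteasome subunit changed, while 0 of the 31 constitutive core and 19S subunits passed the test with any compound by edgeR over all groups, DESeq2 or limma-voom (2, 4 and 0 had an unadjusted edgeR p under 0.05 with compounds 4, 5 and 6). Of all 13404 tested genes, edgeR called 1598, 3763 and 590 with compounds 4, 5 and 6. An unadjusted edgeR p under 0.05 was reached by 3619, 5562 and 2680 of them. The count of 0 among the 31 subunits depended on the setting. PSMA2, PSMA4, PSMA6 and PSMC6 were called lower with compound 5 by edgeR on only the groups compared and without replicate 1 of compound 4, PSMA2, PSMA4 and PSMC6 also with upper-quartile scaling and, together with PSMA6 and PSMC1, with library size alone. PSMA2 was also called without a filter on low counts and without replicate 2 of compound 4 (there with PSMA6, and with compound 4 as well), and PSMA4 after the correction for length and GC content. PSME4, which encodes the activator PA200, rose 1.9-fold. NFE2L1 fell to 0.681 of its DMSO level, PSME2 to 0.725 and PSMB8 to 0.603. The PSMB8 call was lost with DESeq2, and the PSMB8 and PSME2 calls were each kept in 4 of 8 fits that left out 1 replicate, those without a DMSO or a compound 5 sample having lost them, and NFE2L1 was called in 7 of 8 of these fits and PSME4 in 8 of 8. Tests were made with edgeR's quasi-likelihood test across 13404 genes with Benjamini-Hochberg adjustment, and genes were called at an adjusted p under 0.05. Of the 43 genes, 42 passed the filter on low counts, and PSMB9 did not.

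With compound 5, 1 of the 42 tested genes was called higher, where 13.9% of all tested genes were, and 3 were called lower, where 14.2% of all were. With compound 4, edgeR called 0 of 42 (background 6.5% higher and 5.42% lower), with 4 genes at an unadjusted p under 0.05, and DESeq2 and limma-voom also called 0. With compound 6, the edgeR count was again 0 of 42 (background 2.8% higher and 1.6% lower), 1 gene had an unadjusted p under 0.05, and the other tools called 0. With 1 sample left out, the number called with compound 5 ran from 1 (without replicate 2 of compound 5) over 2 (without replicate 1 of compound 5 or either DMSO sample) to 6 and 9 (without replicate 2 or 1 of compound 4). The called share of the group was below that of all genes in each comparison. The median log2 fold change of the 42 genes was 0.004, -0.096 and -0.093 with compounds 4, 5 and 6, beside medians over all tested genes of 0.000, -0.032 and 0.003. The median with compound 5 depended on the processing and became 0.018 after a correction for transcript length and GC content. The median with compound 6 became -0.030 without replicate 2 of compound 6, -0.046 without replicate 1 of DMSO and -0.059 after the same correction. The 43 genes together took 0.6% and 0.575% of the unscaled counts in DMSO and 0.563% and 0.595% with compound 4. The shares were 0.529% and 0.526% with compound 5 and 0.572% and 0.536% with compound 6. Summed as normalised CPM, the genes were at 5885 and 5540 in DMSO and 5593 and 5971 with compound 4. These sums were 5531 and 5492 with compound 5 and 5651 and 5321 with compound 6.

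**Figure D1:**
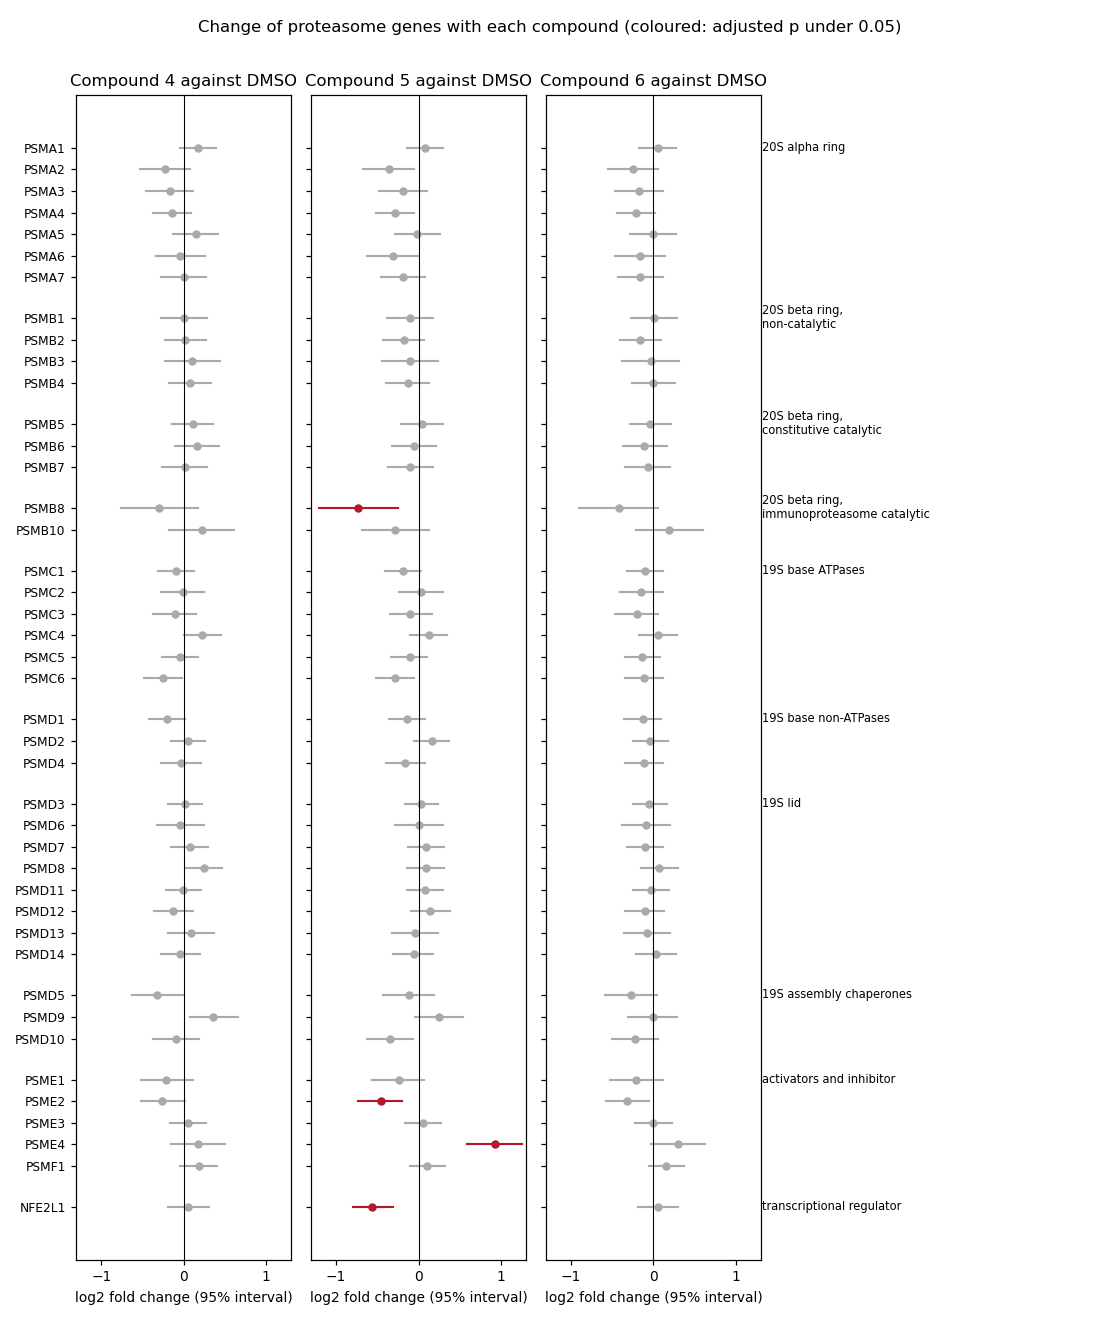
Log2 fold change against DMSO (x axis, points, with 95% intervals as lines) of the 42 tested genes, grouped by sub-complex, with 1 panel for each compound. Coloured points passed an adjusted p of 0.05, which only PSMB8, PSME2, PSME4 and NFE2L1 did, all with compound 5, and the intervals of the 31 constitutive core and 19S subunits stayed within -0.67 and 0.46.

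NFE2L1 (ENSG00000082641, chromosome 17, 48048329 to 48061487, plus strand, GRCh38) was measured at 335 and 340 normalised CPM in DMSO, 372 and 329 under compound 4, 243 and 217 under compound 5, and 329 and 372 under compound 6. Both compound 5 samples lay below the other 6 samples, which overlapped one another. Against DMSO, the log2 fold change with compound 5 was -0.56 (SE 0.11, edgeR adjusted p = 0.00491). With compounds 4 and 6 it was 0.05 in each case (SE 0.11), with 95% intervals of -0.19 to 0.30. In order of level, the compound 5 group was lowest, and the neighbours DMSO, compound 4 and compound 6 did not differ beyond their spread. The call was kept under 12 of 12 other processing settings, with log2 fold changes between -0.66 and -0.53, but it was lost without replicate 2 of compound 5 (-0.47, edgeR adjusted p = 0.0552).

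The relative NFE2L2 moved the other way with compound 5, from 235 and 237 normalised CPM in DMSO to 364 and 420 (log2 fold change 0.73, SE 0.10, edgeR adjusted p = 8.08e-04). A part of its sequence, 15.5% of its 31-mers, also occurs in other genes. The ratio of NFE2L1 to NFE2L2 counts within a sample does not depend on how libraries are scaled. This ratio was 1.42 and 1.44 in DMSO, 1.33 and 1.18 under compound 4, 0.668 and 0.515 under compound 5, and 1.19 and 1.24 under compound 6. NFE2L1 counts exceeded NFE2L2 counts in 6 samples and were below them in both samples of compound 5.

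Among the activators, PSME4 (ENSG00000068878, chromosome 2, 53864067 to 53970840, minus strand) had 159 and 177 normalised CPM in DMSO, 221 and 157 under compound 4, 334 and 305 under compound 5, and 199 and 214 under compound 6. PA200, its product, caps the 20S core without ATP and is known for degrading acetylated histones. The compound 5 samples were the highest of all, and the compound 4 samples lay on both sides of the DMSO range. The log2 fold change with compound 5 was 0.92 (SE 0.15, edgeR adjusted p = 0.00157) and kept its call under 12 of 12 settings and in 8 of 8 fits that each left out 1 replicate. With compound 4 it was 0.17 (SE 0.15, 95% interval -0.16 to 0.50), and with compound 6 it was 0.30 (SE 0.15, 95% interval -0.03 to 0.63). The PSME4 transcript is long, at 7099 bases, and long transcripts were higher in the compound 5 samples, where the median log2 ratio to DMSO of genes over 6000 bases was 0.20 and 0.10. Corrected for length and GC content, the PSME4 value was 0.81 (edgeR adjusted p = 1.68e-04).

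**Figure D2:**
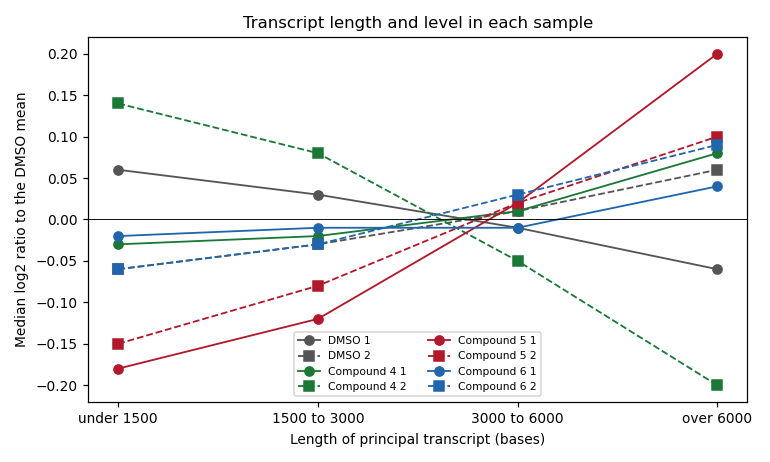
Median log2 ratio to the DMSO mean (y axis) of the tested genes in 4 classes of principal transcript length (x axis, bases), with 1 line for each sample (circles and solid lines, replicate 1; squares and dashed lines, replicate 2). The compound 5 samples run from -0.18 and -0.15 for the shortest class to 0.20 and 0.10 for the longest, and replicate 2 of compound 4 runs the other way, from 0.14 to -0.20.

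PSME1 and PSME2 encode the alpha and beta subunits of the 11S activator PA28, which is induced by interferon gamma and favours the release of peptides for MHC class I. PSME2 (ENSG00000100911, chromosome 14, 24143362 to 24147570, minus strand) was at 154 and 144 normalised CPM in DMSO, 113 and 136 under compound 4, 111 and 105 under compound 5, and 128 and 112 under compound 6. All 6 treated samples lay below both DMSO samples. With compound 5 the log2 fold change was -0.46 (SE 0.12, edgeR adjusted p = 0.0163), but this call was lost when either DMSO sample or either compound 5 sample was left out (edgeR adjusted p up to 0.112). The changes with compound 4 (-0.26, SE 0.12, 95% interval -0.52 to 0.01) and compound 6 (-0.32, SE 0.12, edgeR adjusted p = 0.169) did not pass. After the length and GC correction the PSME2 value with compound 4 was -0.38 and passed (edgeR adjusted p = 0.0195).

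PSME1, the partner of PSME2, was at 168 and 142 normalised CPM in DMSO and 134 and 128 with compound 5 (log2 fold change -0.24, SE 0.14, edgeR adjusted p = 0.228). PSME3, which encodes the nuclear activator PA28 gamma, had log2 fold changes of 0.05, 0.05 and 0.00 with compounds 4, 5 and 6 (SE 0.10 each). PSMF1, the inhibitor PI31, had 0.18, 0.10 and 0.15 (SE 0.10 each). Set against PSME3 in the same sample, PSME4 counts gave a ratio of 0.883 and 0.918 in DMSO and 1.8 and 1.51 with compound 5, whereas the ratio of PSME2 to PSME3 was 0.854 and 0.747 in DMSO and 0.6 and 0.521 with compound 5. Members of the activator group thus changed in opposite directions with the same compound.

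**Figure D3:**
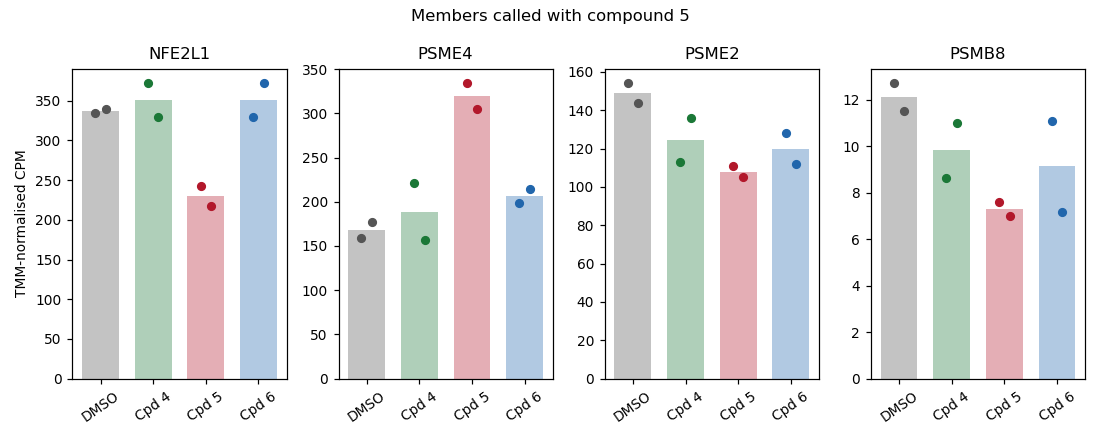
Normalised CPM (y axis, linear from 0) of the genes called with compound 5, by treatment group (Cpd, compound). Points are the 2 samples of a group and bars their means. NFE2L1 at 243 and 217 with compound 5 lies below all other samples, and PSME4 at 334 and 305 above them.

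In the immunoproteasome, the catalytic subunits PSMB5, PSMB6 and PSMB7 are replaced by the inducible PSMB8, PSMB9 and PSMB10. Per kilobase of principal transcript, the DMSO level was 201 normalised CPM for PSMB5 and 10.8 for PSMB8, 131 for PSMB6 and 1.08 for PSMB9, and 109 for PSMB7 and 12.9 for PSMB10, so the inducible subunits were present at low levels. PSMB8 (ENSG00000204264, chromosome 6, 32840717 to 32844703, minus strand) had 12.7 and 11.5 normalised CPM in DMSO, 8.64 and 11 under compound 4, 7.61 and 6.99 under compound 5, and 11.1 and 7.16 under compound 6. With compound 5 its log2 fold change was -0.73 (SE 0.22, edgeR adjusted p = 0.0304), below both DMSO samples in 2 of 2 samples. This call was lost with DESeq2 (-0.71, DESeq2 adjusted p = 0.0654) and when either DMSO sample or either compound 5 sample was left out (edgeR adjusted p up to 0.149). With compounds 4 and 6 the values were -0.30 (SE 0.21) and -0.42 (SE 0.22), with 95% intervals of -0.76 to 0.17 and -0.90 to 0.06.

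PSMB10 was at 16.4 and 15 normalised CPM in DMSO, 15.5 and 21 under compound 4, 11.3 and 14.6 under compound 5, and 18.9 and 17.1 under compound 6. Its log2 fold change with compound 5 was -0.28 (SE 0.19, edgeR adjusted p = 0.288), and 30.2% of its 31-mers also occur in another gene, so that its reads could have been assigned either way. PSMB9 had 8 and 11 counts in DMSO, 2 and 1 under compound 4, 4 and 4 under compound 5, and 3 and 4 under compound 6. The DMSO samples held the most counts, but most treated samples were near the limit of 3 counts and the gene was not tested in the main fit.

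The constitutive catalytic subunits did not follow PSMB8. PSMB5, the chymotrypsin-like subunit, was at 273 and 246 normalised CPM in DMSO, 256 and 304 under compound 4, 259 and 275 under compound 5, and 258 and 248 under compound 6. PSMB6, the caspase-like subunit, was at 121 and 103 in DMSO, 118 and 132 under compound 4, 113 and 103 under compound 5, and 109 and 99.1 under compound 6. PSMB7, the trypsin-like subunit, was at 118 and 95.2 in DMSO, 104 and 111 under compound 4, 105 and 94.4 under compound 5, and 102 and 101 under compound 6. The groups overlapped with DMSO for all 3 genes and all 3 compounds, and the log2 fold changes lay between -0.11 and 0.16. Within a sample, the ratio of PSMB8 to PSMB5 counts was 0.0465 and 0.0467 in DMSO, 0.0337 and 0.0362 under compound 4, 0.0293 and 0.0254 under compound 5, and 0.0429 and 0.0289 under compound 6, lower than in DMSO in 6 of 6 treated samples. The ratio of PSMB10 to PSMB7 did not follow it, at 0.139 and 0.158 in DMSO, 0.148 and 0.19 under compound 4, 0.107 and 0.155 under compound 5, and 0.185 and 0.169 under compound 6.

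**Figure D4:**
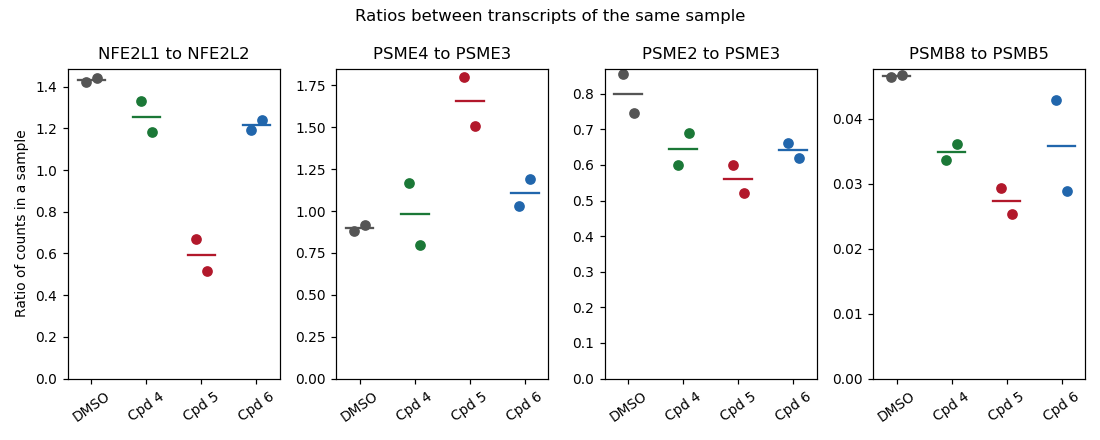
Ratio of counts between the named genes in the same sample (y axis, linear from 0) by treatment group (Cpd, compound), with points for the 2 samples of a group and lines for their means. The ratio of NFE2L1 to NFE2L2 is 0.668 and 0.515 with compound 5 and above 1 in all other samples.

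Promoters of some interferon-inducible members carry the letters of an interferon-stimulated response element near the start. RefSeq promoter windows (GRCh38.p14, 250 bases before to 50 after the start) were available for 38 of the 43 genes. The core GAAANNGAA, searched on both strands (TTCNNTTTC on the other), was held by 7 of the 38 (18.4%) and by 9.9% of all 27305 genes with a window. These were PSMA4, PSMB4, PSMB8, PSMB10, PSMC2, PSME1 and PSME2. The following stretches, 5′ to 3′ on the strand of the gene and with the matched letters in capitals, are those of both PA28 subunits and of the inducible catalytic subunits PSMB8 and PSMB10, since PSME2 and PSMB8 were lower with compound 5. The window of PSMB9, the other inducible catalytic subunit, does not hold the core.
PSME2 (chr14:24146619-24146648, minus strand): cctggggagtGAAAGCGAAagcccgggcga
PSME1 (chr14:24136190-24136219, plus strand): ccctaccgctTTCGCTTTCccttcgcggtg
PSMB8 (chr6:32844031-32844060, minus strand): atctgtggctTTCGCTTTCacttcctcctc
PSMB10 (chr16:67936852-67936881, minus strand): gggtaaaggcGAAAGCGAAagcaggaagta
All 4 hold the same 9 letters, read on either strand. With compound 5, the log2 fold changes of these genes were -0.46 for PSME2 and -0.73 for PSMB8, both called, and -0.24 (95% interval -0.56 to 0.07) for PSME1 and -0.28 (95% interval -0.69 to 0.13) for PSMB10. The holders not shown had -0.28 for PSMA4, -0.13 for PSMB4 and 0.03 for PSMC2 and were not called. Differences between the genes were not tested. A match is a description of the letters and not evidence of a bound site.

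The core of the antioxidant response element, TGACNNNGC (GCNNNGTCA on the other strand), is the type of sequence that NFE2L1 and NFE2L2 bind together with small MAF proteins. It was held by 13 of the 38 windows (34.2%) and by 16.1% of all 27305 genes with a window. The CCAAT box was held by 19 of the 38 (50%) and by 39.7% of all. The 13 holders were PSMA4, PSMB3, PSMB9, PSMC4, PSMC5, PSMD1, PSMD3, PSMD5, PSMD9, PSMD12, PSME1, PSME2 and PSME4, of which PSME4 was called higher and PSME2 lower with compound 5. The stretches of PSME4 and of 4 core and 19S subunits follow and were chosen after their values were seen.
PSME4 (chr2:53971008-53971037, minus strand): cccggcggctGCAGCGTCAccagcagagcc
PSMA4 (chr15:78540650-78540679, plus strand): gtgggcacgaTGACTCTGCaccgcctcctc
PSMB3 (chr17:38752627-38752656, plus strand): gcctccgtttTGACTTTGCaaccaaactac
PSMC5 (chr17:63827654-63827683, plus strand): gaccggatctGCTGTGTCAgcgccgccctc
PSMD3 (chr17:39980760-39980789, plus strand): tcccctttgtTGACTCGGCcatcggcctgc
With compound 5, the log2 fold changes of these genes were 0.92 for PSME4, -0.28 for PSMA4, -0.10 for PSMB3, -0.11 for PSMC5 and 0.03 for PSMD3.

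In the alpha ring, whose subunits form the gate of the core, 0 of 7 genes were called with any compound by edgeR, DESeq2 or limma-voom. The edgeR background, higher and lower, was 6.5% and 5.42%, 13.9% and 14.2%, and 2.8% and 1.6% with compounds 4, 5 and 6. With compound 5, 3 of the 7 had an unadjusted edgeR p under 0.05, where 5562 of all 13404 tested genes did. The median log2 fold change of the ring was -0.04, -0.19 and -0.17 with compounds 4, 5 and 6. PSMA2 had the largest change with each compound. It was at 163 and 151 normalised CPM in DMSO, 115 and 154 under compound 4, 117 and 127 under compound 5, and 140 and 125 under compound 6. Its log2 fold change with compound 5 was -0.36 (SE 0.14, 95% interval -0.67 to -0.06, edgeR adjusted p = 0.0734), with -0.23 for compound 4 and -0.25 for compound 6. The compound 5 and compound 6 samples lay below the DMSO samples, those of compound 4 did not all. PSMA4 and PSMA6 had values of -0.28 and -0.31 with compound 5 (edgeR adjusted p = 0.0707 and 0.11), and PSMA1 was at 0.08. PSMA2, PSMA4 and PSMA6 passed the threshold under some other settings. All 3 passed by edgeR on only the groups compared (adjusted p = 0.0111, 0.043 and 0.0275), where the median of all genes was -0.006, and without replicate 1 of compound 4. PSMA4 also passed after the length and GC correction (-0.31, edgeR adjusted p = 0.0323), and all 3 with scaling by library size alone (PSMA2 -0.47, PSMA4 -0.38, PSMA6 -0.42), which moved the median of all genes to -0.136. The smallest changes under the other processing settings, leaving out a replicate aside, were -0.21 for PSMA2, -0.25 for PSMA4 and -0.17 for PSMA6. Of the PSMA2, PSMA6 and PSMA1 sequences, between 19.1% and 21.6% of 31-mers occur in other genes.

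The non-catalytic beta subunits PSMB1, PSMB2, PSMB3 and PSMB4 had log2 fold changes between 0.00 and 0.10 with compound 4, between -0.18 and -0.10 with compound 5 and between -0.16 and 0.01 with compound 6. The largest values were those of PSMB3 with compound 4 and PSMB2 with the other compounds. PSMB2 was at 134 and 121 normalised CPM in DMSO, 123 and 134 under compound 4, 112 and 112 under compound 5, and 123 and 106 under compound 6, and its change with compound 5 was -0.18 (SE 0.11, edgeR adjusted p = 0.243). PSMB3 was at 204 and 160 in DMSO, 180 and 211 under compound 4, 162 and 178 under compound 5, and 200 and 155 under compound 6. Its DMSO samples spanned nearly the whole range of the other groups.

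The base of the 19S regulator contains 6 ATPases, PSMC1 to PSMC6, which unfold the substrate and open the gate. Their median log2 fold change was -0.07 under compound 4, -0.10 under compound 5 and -0.13 under compound 6. PSMC6 was at 86.3 and 87.5 normalised CPM in DMSO, 69.8 and 76 under compound 4, 69.9 and 72.3 under compound 5, and 84.6 and 76.4 under compound 6. All 6 treated samples lay below DMSO, with log2 fold changes of -0.25 (SE 0.10, edgeR adjusted p = 0.144) with compound 4, -0.29 (SE 0.10, edgeR adjusted p = 0.0604) with compound 5 and -0.11 (SE 0.10) with compound 6, so the smallest adjusted p of the 31 constitutive subunits with compound 5 was that of PSMC6. PSMC3 was at 156 and 141 in DMSO, 136 and 139 under compound 4, 138 and 140 under compound 5, and 142 and 115 under compound 6, the largest value among the ATPases with compound 6 (-0.20, SE 0.12, edgeR adjusted p = 0.373). PSMC4 was the only ATPase whose value was above 0 with all 3 compounds, at 0.22, 0.12 and 0.06.

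The non-ATPase subunits of the base, PSMD1, PSMD2 and PSMD4, include the ubiquitin receptor PSMD4. PSMD1, a scaffold of the base, was at 130 and 144 normalised CPM in DMSO, 119 and 119 under compound 4, 123 and 125 under compound 5, and 127 and 122 under compound 6, below DMSO in every treated sample, with log2 fold changes of -0.20, -0.14 and -0.13 (SE 0.10 each). PSMD2, the other scaffold, was at 266 and 279 in DMSO, 288 and 276 under compound 4, 316 and 294 under compound 5, and 269 and 262 under compound 6 (0.16 with compound 5, SE 0.10, edgeR adjusted p = 0.224). PSMD4 had -0.03, -0.16 and -0.11 (SE 0.11 each).

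The lid, which contains the deubiquitinase PSMD14, had a median log2 fold change of 0.00 under compound 4, 0.06 under compound 5 and -0.06 under compound 6, with 8 of 8 subunits within -0.13 and 0.24 for all 3 compounds. PSMD8 was at 146 and 135 normalised CPM in DMSO, 158 and 173 under compound 4, 147 and 151 under compound 5, and 151 and 144 under compound 6, highest with compound 4 (0.24, SE 0.10, edgeR adjusted p = 0.155). PSMD12 was at 74 and 74.9 in DMSO, 71.1 and 65.4 under compound 4, 83.7 and 80.8 under compound 5, and 64.7 and 73.6 under compound 6, which made it the lid subunit of largest change with compound 5 (0.14, SE 0.11) and, together with PSMD7, with compound 6 (-0.10 for each). PSMD14 itself had -0.04, -0.06 and 0.03 (SE 0.11 each).

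The precision limits what could be seen in these subunits. Over the 31 core and 19S subunits without the immunoproteasome subunits, SEs were between 0.09 and 0.15, and the 95% intervals of the log2 fold change lay within -0.53 and 0.46 for compound 4, within -0.67 and 0.38 for compound 5, and within -0.55 and 0.31 for compound 6. Intervals lay wholly within 0.5 of 0 for 30, 27 and 30 of the 31 genes, respectively. A change by more than 1 on the log2 scale was outside the interval of every one of these genes in each comparison with DMSO.

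The 3 chaperones of 19S assembly, PSMD5, PSMD9 and PSMD10, are transient partners of the ATPases. PSMD9 was at 31 and 24.7 normalised CPM in DMSO, 34.6 and 36.9 under compound 4, 33.4 and 32.8 under compound 5, and 26.6 and 28.4 under compound 6. With compound 4 its log2 fold change was 0.36 (SE 0.13, edgeR adjusted p = 0.105), but 28.7% of its 31-mers occur in other genes. PSMD10 (gankyrin) was at 41.6 and 37.7 in DMSO, 34 and 40.2 under compound 4, 30.9 and 31.4 under compound 5, and 36 and 32.1 under compound 6 (-0.35 with compound 5, SE 0.13, edgeR adjusted p = 0.0639). PSMD5 was at 17.6 and 16.8 in DMSO, 12.9 and 14.6 under compound 4, 15.3 and 16.3 under compound 5, and 15.2 and 13.3 under compound 6, below DMSO in every treated sample, with -0.32 (SE 0.14, edgeR adjusted p = 0.175) for compound 4, -0.12 (SE 0.14) for compound 5 and -0.27 (SE 0.14, edgeR adjusted p = 0.326) for compound 6. In compound 5, PSMD9 and PSMD10 had values of opposite sign.

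Of the 42 tested genes, 9 had both compound 5 samples above both DMSO samples and 19 had both below, where 32.9% and 37.3% of all tested genes did. The corresponding numbers were 5 above and 10 below with compound 4 (27.5% and 27.1% of all), and 3 above and 15 below with compound 6 (26.3% and 26.6% of all). These counts share the DMSO samples and are given side by side.

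The compounds were then compared with one another at their own IC50 concentrations, in 3 pairs with p-values adjusted over all genes within each pair. PSME4 and NFE2L1 were called between compound 5 and each of the others. PSME4 was higher with compound 5 than with compound 4 by 0.75 (SE 0.15, edgeR adjusted p = 0.013) and than with compound 6 by 0.63 (SE 0.15, edgeR adjusted p = 0.0268), and the difference of NFE2L1 was -0.61 (SE 0.11, edgeR adjusted p = 0.0103) in both pairs. These were 1 higher and 1 lower of 42 genes in each pair, where 6.91% of all genes were higher and 7.04% lower with compound 5 than with compound 4, and 4.76% and 5.16% than with compound 6. The PSME4 and NFE2L1 calls were lost in both pairs when either compound 5 sample was left out, PSME4 also without either compound 6 sample and NFE2L1 without replicate 2 of compound 6 in the pair with compound 6.

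Between compounds 4 and 6, edgeR called 0 of 42 genes (background 0.0224% higher and 0.0224% lower), and DESeq2 and limma-voom called 0. PSMB6 and PSMD9 had an unadjusted edgeR p under 0.05, where 1315 of all 13404 tested genes did. The difference was 0.00 for NFE2L1 (95% interval -0.25 to 0.24) and -0.13 for PSME4 (95% interval -0.46 to 0.20). PSMB8 and PSME2 were called between none of the pairs. Their differences between compounds 5 and 4 were -0.43 (95% interval -0.92 to 0.06) and -0.21 (95% interval -0.47 to 0.06), so that a difference as large as the change against DMSO lay inside the interval for both genes.

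Around the proteasome, lists of partner genes were examined for the steps before and after the particle. Of 10 other proteasome genes, 4 rose and 0 fell with compound 5 (background 13.9% and 14.2%). These were ZFAND2A and ZFAND5, which encode proteasome-associated zinc finger proteins, the ubiquitin ligase UBE3C and the adaptor ECPAS. ZFAND2A was at 60.9 and 57.4 normalised CPM in DMSO, 84.8 and 93.9 under compound 4, 103 and 114 under compound 5, and 70.7 and 91.4 under compound 6, with log2 fold changes of 0.60 (SE 0.13, edgeR adjusted p = 0.0169) for compound 4 and 0.88 (SE 0.13, edgeR adjusted p = 0.00119) for compound 5. ZFAND5 was at 70.6 and 70.4 in DMSO, 85.2 and 85.7 under compound 4, 126 and 127 under compound 5, and 81.5 and 95.7 under compound 6 (0.84 with compound 5, SE 0.11, edgeR adjusted p = 4.72e-04). In both genes all treated samples were above DMSO and those of compound 5 were highest.

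Among 6 further assembly factors, POMP and PSMG1 to PSMG4 for the 20S core and PAAF1 for the 19S base, 1 fell and 0 rose with compound 5 (background 14.2% and 13.9%), and the 5 factors of the 20S core were not called. PAAF1, which binds 19S ATPases, was at 30.8 and 24.9 normalised CPM in DMSO, 25.3 and 29.2 under compound 4, 16.2 and 17.7 under compound 5, and 29.3 and 23.9 under compound 6 (-0.71, SE 0.16, edgeR adjusted p = 0.00844). PSMG4 had the next largest value, with 16.8 and 18.1 in DMSO, 21.2 and 25 under compound 4, 15.8 and 15.2 under compound 5, and 16.8 and 21.5 under compound 6 (0.41 with compound 4, SE 0.15, edgeR adjusted p = 0.117).

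Another list held 15 genes, which were factors that process or degrade NFE2L1, the small MAF genes that pair with it, its relatives NFE2L2 and NFE2L3, and KEAP1, the adaptor of NFE2L2. Of these, 7 rose, the NFE2L2 given above and KEAP1 among them, and 0 fell with compound 5 (background 13.9% and 14.2%), and 3 rose and 1 fell with compound 4 (background 6.5% and 5.42%). The small MAF proteins, which pair with NFE2L1 and NFE2L2 on DNA, gave the largest values. MAFK was at 42 and 39.5 normalised CPM in DMSO, 85.7 and 88.4 under compound 4, 185 and 179 under compound 5, and 52.1 and 80.9 under compound 6. It was called with all 3 compounds, with log2 fold changes of 1.09 (SE 0.17, edgeR adjusted p = 0.00296), 2.16 (SE 0.17, edgeR adjusted p = 6.7e-05) and 0.71 (SE 0.17, edgeR adjusted p = 0.0447). MAFF was at 19.6 and 18.7 in DMSO, 30.5 and 41.7 under compound 4, 51.9 and 62.2 under compound 5, and 24.8 and 34.3 under compound 6, and it rose with compounds 4 (0.92) and 5 (1.57). MAFG rose with the same compounds (0.74 and 1.31). SYVN1, the ubiquitin ligase of the endoplasmic reticulum that targets NFE2L1 for degradation, rose with compound 5 (0.99, SE 0.11, edgeR adjusted p = 2.78e-04), as did the VCP cofactor NPLOC4 (0.32) and KEAP1, the adaptor that marks NFE2L2 for degradation (0.28). DDI2, the protease that cleaves NFE2L1 into its active form, fell with compound 4 (-0.66, SE 0.18, edgeR adjusted p = 0.0382), but 15% of its 31-mers occur in RSC1A1. Relative to the DMSO mean it was at -0.41 and -0.93 in the compound 4 samples, and its transcript is long, at 10625 bases, where genes over 6000 bases had medians of 0.08 and -0.20 in these samples. The DDI2 value was -0.52 (edgeR adjusted p = 0.00923) after the length and GC correction and -0.41 (edgeR adjusted p = 0.153) without replicate 2 of compound 4.

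Of the 9 tested genes for ubiquitin and shuttle receptors that are reported here, 1 rose and 0 fell with compound 5 (background 13.9% and 14.2%). Of these 9, 2 had an unadjusted edgeR p under 0.05, where 5562 of all 13404 tested genes did. UBA6, an activating enzyme for ubiquitin, was at 52.1 and 51.8 normalised CPM in DMSO, 52.9 and 48.5 under compound 4, 76.6 and 76.4 under compound 5, and 58.3 and 60.5 under compound 6 (0.56 with compound 5, SE 0.10, edgeR adjusted p = 0.00292). The next largest value was that of UBQLN2, a shuttle receptor, at 20.4 and 23.9 in DMSO, 26.3 and 22.9 under compound 4, 27.9 and 28.3 under compound 5, and 25.2 and 25.9 under compound 6 (0.34 with compound 5, SE 0.13, edgeR adjusted p = 0.0794). DDI1 had no counts in any sample.

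The companions of the immunoproteasome in antigen presentation included 3 genes that fell with compound 5 among the 7 tested that are reported here, while 0 rose (background 14.2% lower and 13.9% higher). ERAP2, an aminopeptidase that trims peptides in the endoplasmic reticulum, was at 17.7 and 18.1 normalised CPM in DMSO, 8.04 and 7.96 under compound 4, 12.2 and 10.5 under compound 5, and 12.3 and 9.47 under compound 6. It fell with all 3 compounds, with log2 fold changes of -1.16 (SE 0.17, edgeR adjusted p = 0.00196), -0.66 (SE 0.16, edgeR adjusted p = 0.0126) and -0.73 (SE 0.16, edgeR adjusted p = 0.0357). ERAP1, the related aminopeptidase, was at 28.2 and 30.2 in DMSO, 25.4 and 21 under compound 4, 17.7 and 14.8 under compound 5, and 30.4 and 26 under compound 6, and fell with compound 5 (-0.85, SE 0.15, edgeR adjusted p = 0.00292). IRF1, a transcription factor of interferon-inducible genes, fell with compound 5 (-0.49, SE 0.17, edgeR adjusted p = 0.0499). TAP1, TAP2, TAPBP and B2M were not called, and NLRC5 was not tested.

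**Figure D5:**
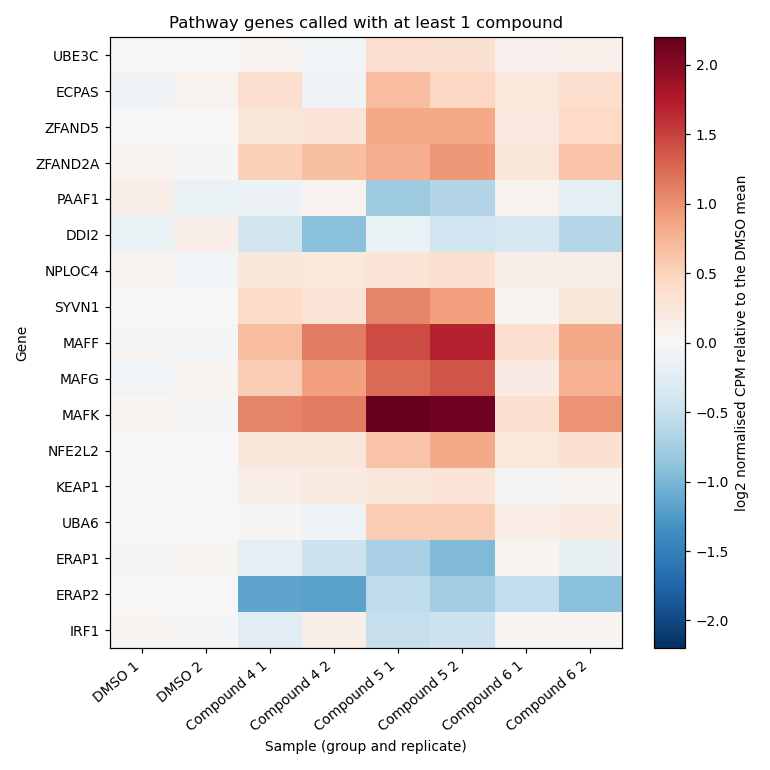
Log2 of normalised CPM relative to the DMSO mean (colour scale) of the partner genes called with at least 1 compound, in the 8 samples (columns; replicate number after the group). The small MAF genes MAFF, MAFG and MAFK are highest in the compound 5 samples, and ERAP2 is below DMSO in all 6 treated samples.

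Between compounds 5 and 4, edgeR called 2 of the 10 other proteasome genes, 2 of the 6 assembly factors, 4 of the 15 genes of the NFE2L1 list (NFE2L2 among them), 1 of the 9 ubiquitin genes and 0 of the 7 antigen presentation genes (background 6.91% higher and 7.04% lower). Between compounds 5 and 6, the numbers were 1, 1, 5, 1 and 1 (background 4.76% and 5.16%). MAFK (1.06), SYVN1 (0.64), NFE2L2 (0.49), UBA6 (0.59) and ZFAND5 (0.56) were higher with compound 5 than with compound 4, and MAFK (1.45), SYVN1 (0.83), NFE2L2 (0.45), UBA6 (0.36) and ZFAND5 (0.51) were higher than with compound 6, each with an edgeR adjusted p of at most 0.0469. PAAF1 was lower in both pairs (-0.68 and -0.64), PSMG4 was lower than with compound 4 (-0.58) and ERAP1 than with compound 6 (-0.80). ERAP2 was called in neither pair.

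The length correction also left the calls of the long partner transcripts with compound 5, at 0.43 (edgeR adjusted p = 0.00783) for UBA6 (9564 bases) and 0.44 (edgeR adjusted p = 0.00525) for ECPAS (7391 bases). Some calls of partners were close to the threshold. Of 20 alternatives, the IRF1 call with compound 5 was lost in 13, that of KEAP1 in 9, those of NPLOC4 and UBE3C in 6 each, the calls of MAFK and ERAP2 with compound 6 in 9 and 6, and that of DDI2 with compound 4 in 7. Between compounds 5 and 4, the call of UBE3C was lost in 10 and those of PSMG4 and MAFF in 9 each. Between compounds 5 and 6, that of UBA6 was lost in 13.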

How the data were processed

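The 8 samples are strand-specific mRNA libraries of HepG2 cells that overexpress CYP3A4. Per the labels and the study's methods, the authors checked reads with FastQC 0.12.0, quantified them with Salmon 1.5.0 on GENCODE 38 (GRCh38) and summarized them to genes with tximeta, and they used DESeq2 1.38.3. The deposited table holds these estimated counts for each gene, as rounded expected counts without any scaling. By the column names, replicate 1 of compounds 4 and 5 was merged from 2 parts with different S numbers. The names do not say what these numbers stand for. The strand setting of the counting is not given in the sources used here.

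Symbols and coordinates came from GENCODE 29 (GRCh38). The counts were fitted with edgeR 4.0.16 in R 4.3.3 (TMM, filterByExpr, 1 quasi-likelihood model with the 4 groups, 13404 genes, Benjamini-Hochberg adjustment, two-sided). SEs and 95% intervals come from this fit. DESeq2 1.42.0 and limma-voom (limma 3.58.1) were alternatives, with other scalings and filters, a cutoff of 0.01, the replicate block, a fit of the groups compared only, and fits that left out 1 replicate each. A loess correction for transcript length and GC content, alone and with the block, and crossed replicate numbers of compound 4 were added after seeing the data. On simulated counts for compound 5 against DMSO (13404 genes, 200 changed by 1 on the log2 scale, 3 tables), the procedure recovered 73.7% of them, and 7.5% of its calls were false. The data differ, with 3763 genes called with compound 5 and changes of less than 1 in every tested member. These rates therefore do not carry over to the data. Exact permutation was not used, since 2 against 2 samples allow no p below 0.333.

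The members, lists and tests were chosen with earlier results of these data known. Values in every sample are given for NFE2L1, the catalytic beta subunits, the member with the largest absolute change in each sub-complex and compound, and the 2 genes with the largest change in each partner list. Some genes of the partner lists are not reported here and were left out of the counts of their lists. The other partner genes called against DMSO are named, and genes named as not called, or for a motif or a ratio, were chosen after their values were seen. Shared 31-mers were counted against all other GENCODE 29 transcripts. Replicates of a group differed by more than counting noise, and none was counted as a duplicate. The floor of 3 counts and the counting limits cover counting error only.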

Additional observations from a re-analysis of the deposited data

How the results depend on the processing

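The number of genes called with compound 5 was 4 and became 8 with upper-quartile scaling, 10 with library size alone, 9 with a fit of only the groups compared, 2 at an adjusted p under 0.01, and 1 to 9 when 1 replicate was left out. The genes added by these scalings were PSMA2, PSMA4, PSMC6 and PSMD10, and PSMA6 and PSMC1 with library size alone, all lower, beside medians of all genes of -0.118 and -0.136. PSMA2, PSMA4, PSMA6, PSMC6 and PSMD10 were also added by the fit of only the groups compared, where the median of all genes was -0.006, and without replicate 1 of compound 4. PSMA2 and PSMA6 were added without replicate 2 of compound 4, PSMA2 with no filter on low counts, and PSMA4 with the length and GC correction. The cause was not tested. With compound 4 the count of 0 became 1 without replicate 2 of compound 4 (PSMA2, -0.44, edgeR adjusted p = 0.0489) and 1 with the length and GC correction, alone and with the replicate block (PSME2). Leaving out a replicate gave 0 to 1 with compound 4, 0 to 5 between compounds 5 and 4 and 0 to 2 between compounds 5 and 6, and at an adjusted p under 0.01 the last 2 counts became 0 from 2. The highest counts, 9 with compound 5 and 5 between compounds 5 and 4, were reached without replicate 1 of compound 4. With 1 sample left in a group, that sample is assumed to vary like the other groups.

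The median log2 fold change with compound 5, -0.096, became -0.183 with upper-quartile scaling, -0.199 with library size alone, 0.018 with the length and GC correction and 0.021 with this correction and the replicate block. It ranged from -0.140 to -0.007 when 1 replicate was left out, the last without replicate 1 of DMSO. With compound 6, -0.093 ranged from -0.139 to -0.030 when 1 replicate was left out, the last without replicate 2 of compound 6. The cause of these shifts was not tested. The correction was fitted to these same samples, treated ones included. Of 2600 values of single genes over the alternatives, most from genes that were not called, 49 changed their side of the threshold. Of these, 21 lost a call and 28 gained one, and 0 called values changed direction.

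Same-numbered replicates carried the same day in the labels. They deviated from their group means with correlations between -0.142 and 0.269, so the numbers were not taken as pairs. With the replicate number as a block, 4 genes were called with compound 5, 0 with compounds 4 and 6, 2 between compounds 5 and 4, 2 between compounds 5 and 6, and 0 between compounds 4 and 6, the same counts as without it. With compound 5, the block lost the calls of the partner genes KEAP1 (0.28, edgeR adjusted p = 0.0557) and IRF1 (-0.49, edgeR adjusted p = 0.0564). Crossing the numbers of compound 4, against its labelled days, left the count with compound 5 at 4. The correlation of compound 4 with DMSO was -0.142. Depth limits the low genes: PSMB9, with at most 11 counts in a sample, did not pass the filter of the main fit. It was not called in the fit without a filter on low counts.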

Other observations

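Length and level were related in different ways in the samples. For genes whose principal transcript is under 1500 bases, the median log2 ratio to the DMSO mean was -0.18 and -0.15 in the compound 5 samples, and for those over 6000 bases it was 0.20 and 0.10. In replicate 2 of compound 4 the same medians were 0.14 and -0.20, whereas in replicate 1 they were -0.03 and 0.08, and in the DMSO samples they were within 0.06 of 0. Most core subunits have short transcripts, such as PSMA7 at 996 bases and PSMB6 at 852 bases, while PSME4 has 7099 and NFE2L1 has 4774. The part of transcript length in the values of the short subunits was not tested beyond the correction given above.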
